A study of Mus musculus with 6 samples.

Results

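The antiviral interferon-stimulated genes of mouse muscle stem cells were followed across 6 RNA libraries. The set was a list of 34 gene symbols taken from the interferon response, and 33 of them are among the 12067 rows of the expression table. Ddx60 was not analysed here. Muscle stem cells (satellite cells) are the resident precursors that rebuild muscle fibres, and here they were sorted from limb muscle of male C57BL/6 mice as CD45- CD31- Sca1- VCAM+ cells. After staining with 5 uM ThiolTracker Violet, a dye for reduced glutathione (GSH), the cells were sorted a second time. The young group was all recollected cells of 4-month-old mice, nearly all of which stained high, with 1 animal per library. Cells of 23-month-old mice were divided into an old GSH-high and an old GSH-low group, with 2 pooled animals per library. All groups went through the same stain and sorting, none carried a transgene or a drug, and each group had 2 libraries. The labels do not say whether the old fractions came from the same pools.

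Interferons are secreted when a cell senses foreign nucleic acid. Type I interferon binds its receptor and the kinases Jak1 and Tyk2 activate transcription factors, among them Stat2, which acts together with Irf9. The complex binds a DNA motif called the interferon-stimulated response element, made of GAAA boxes. The induced genes encode sensors of viral RNA and DNA, proteins that bind viral RNA or stop its translation, membrane proteins that block entry or release, and the small modifier ISG15 with its enzymes. In resting cells the same pathway runs at a low level, and stem cells of several tissues are known to hold part of this gene set without infection.

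The response element links the genes to the pathway, so promoter sequences are shown for 6 genes that hold its core and have the lowest p-values in the comparisons below. RefSeq promoter windows of 300 bases (250 before the transcription start and 50 from it onward, GRCm38.p6) were at hand for 25 of the 33 genes. The core was searched as GAAANNGAAA on both strands, N being any base. Each sequence is written 5′ to 3′ along the gene, in lower case, with cores in capitals; on the other strand the core reads as the TTTC form. The windows are Ifit3 (chr19:34583279-34583578, plus strand), Ifit1 (chr19:34640639-34640938, plus strand), Isg15 (chr4:156200769-156201068, minus strand), Bst2 (chr8:71537423-71537722, minus strand), Ddx58 (chr4:40239776-40240075, minus strand) and Trim30a, whose upstream start is shown (chr7:104465144-104465443, minus strand).
Ifit3: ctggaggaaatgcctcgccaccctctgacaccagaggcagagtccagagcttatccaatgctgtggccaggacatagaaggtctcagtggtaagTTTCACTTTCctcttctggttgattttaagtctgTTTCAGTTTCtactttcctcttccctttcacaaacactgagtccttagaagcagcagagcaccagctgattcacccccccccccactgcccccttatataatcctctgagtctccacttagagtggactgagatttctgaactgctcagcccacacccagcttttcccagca
Ifit1: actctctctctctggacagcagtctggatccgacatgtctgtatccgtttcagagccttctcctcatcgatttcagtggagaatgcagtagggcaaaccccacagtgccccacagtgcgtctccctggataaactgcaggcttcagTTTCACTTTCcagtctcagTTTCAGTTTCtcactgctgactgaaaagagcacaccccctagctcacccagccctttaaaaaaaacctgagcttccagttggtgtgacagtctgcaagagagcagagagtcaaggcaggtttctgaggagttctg
Isg15: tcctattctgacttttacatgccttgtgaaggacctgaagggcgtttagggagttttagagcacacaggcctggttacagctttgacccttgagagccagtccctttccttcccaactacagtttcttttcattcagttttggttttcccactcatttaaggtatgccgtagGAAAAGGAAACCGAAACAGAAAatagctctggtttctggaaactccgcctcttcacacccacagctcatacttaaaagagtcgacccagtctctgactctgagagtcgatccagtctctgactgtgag
Bst2: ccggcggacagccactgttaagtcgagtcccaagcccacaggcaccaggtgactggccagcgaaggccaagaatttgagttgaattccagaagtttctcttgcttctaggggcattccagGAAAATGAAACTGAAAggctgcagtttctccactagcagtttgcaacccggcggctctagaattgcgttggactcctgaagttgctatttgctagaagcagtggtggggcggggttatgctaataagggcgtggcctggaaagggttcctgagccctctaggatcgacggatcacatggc
Ddx58: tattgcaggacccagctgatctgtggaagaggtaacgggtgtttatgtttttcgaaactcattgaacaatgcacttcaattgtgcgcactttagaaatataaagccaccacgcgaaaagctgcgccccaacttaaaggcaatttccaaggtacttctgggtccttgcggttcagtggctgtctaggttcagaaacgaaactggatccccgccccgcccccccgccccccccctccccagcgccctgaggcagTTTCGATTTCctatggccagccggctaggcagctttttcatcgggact
Trim30a: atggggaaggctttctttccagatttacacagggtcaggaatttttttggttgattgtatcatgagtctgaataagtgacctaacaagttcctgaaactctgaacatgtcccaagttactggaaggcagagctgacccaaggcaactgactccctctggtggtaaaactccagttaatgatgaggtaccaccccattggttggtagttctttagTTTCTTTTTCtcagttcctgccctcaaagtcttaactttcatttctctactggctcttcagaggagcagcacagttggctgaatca

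In Isg15 the cores overlapped in 1 run that began 78 bases before the start. In Bst2 a run of overlapping cores began 130 bases before it. Ifit1 had cores 104 and 85 bases before its start, and Ifit3 had cores 156 and 122 bases before, all on the strand opposite to the gene. In Ddx58, which encodes the RNA sensor RIG-I, the core lay just after the start. The core was present in 11 of the 25 antiviral genes with a window (44.0%), against 315 of 8330 tested genes with a window (3.78%) and 1131 of 32851 windows of the table (3.44%). The other holders were Eif2ak2, Ifih1, Ifitm2, Ifitm3 and Rsad2. The gamma-activated sequence, a motif of the interferon gamma response, was searched as TTCNNNGAA, which reads the same on both strands. It was found in 7 of 25 (28.0%), against 8.01% of tested genes. These matches describe the letters of the windows and say nothing of binding.

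**Figure D1:**
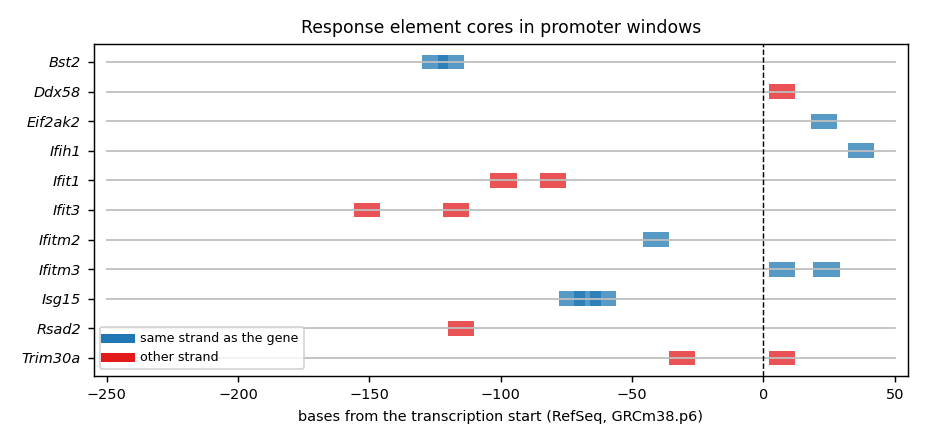
Positions of the response element core in the promoter windows of the 11 antiviral genes that hold it. The horizontal axis gives bases from the RefSeq transcription start, coloured blocks are cores on the strand of the gene or on the other one, and the Isg15 and Bst2 blocks overlap. The Trim30a blocks belong to 2 annotated starts.

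Expression was given as RPKM (reads scaled for gene length and library depth), which allows levels of different genes to be compared. Whole reads could be recovered from the RPKM values and totalled 47.0 to 68.8 M per library. On a principal component analysis of 10609 genes the first component (72.7% of the variance) separated young from old libraries, and the second (16.8%) set the old GSH-high libraries apart from the rest. Satellite cell markers were present in every library, with summed RPKM of 11 markers between 2602 and 3359. Markers of other cell types were also present and are given beside the results. Levels are means ± SD over 2 libraries. Log2 fold changes are on log2(RPKM + 1) with the SE of the fit, and an adjusted p is that of limma with Benjamini-Hochberg adjustment over 10609 genes. A gene was called changed when that p was under 0.05. The added 1 shrinks changes of genes near or below 1 RPKM, so ratios of mean RPKM are given too.

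Most antiviral genes were expressed at a few RPKM. In all libraries 16 of the 33 stayed under 5 RPKM, whereas 3 (Ifitm3, Ifitm2 and Ifi27) were above 50 RPKM throughout. The median over the 33 genes was 1.63 and 1.71 RPKM in the young libraries, 4.93 and 4.17 in old GSH-high and 5.03 and 3.95 in old GSH-low. Every gene had at least 54 reads in every library. In bulk RNA a lower share of expressing cells and less RNA per cell cannot be told apart.

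**Figure D2:**
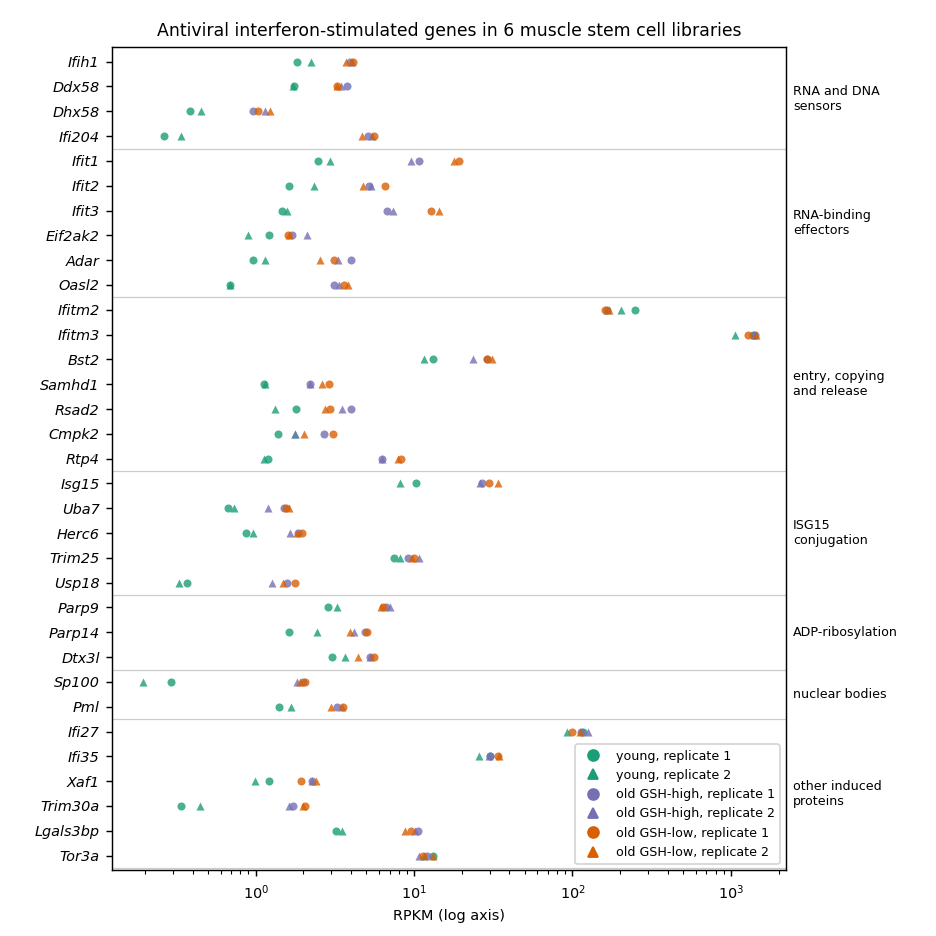
RPKM of the 33 antiviral genes in each library on a log axis, grouped by role; colour gives the group and the marker shape the replicate. The young points lie to the left for most genes, Ifitm2 is the one gene whose young points lie to the right of all old ones, and the old fractions mostly coincide, with Ifit1 and Ifit3 as exceptions.

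Old GSH-high cells were compared with young cells to see how age changed these genes among cells with high glutathione. Of the 33 antiviral genes 27 rose, 1 fell (Ifitm2) and 5 did not pass (Ifitm3, Cmpk2, Ifi27, Ifi35 and Tor3a). Over all genes tested 15.1% rose and 13.7% fell. Both old GSH-high libraries were above both young ones for 28 of 33 genes, against 32.4% of all genes tested. Of the 33 genes, 11 were under 1 RPKM in a young library and entered the fit through the old libraries, so that their rise was built into the filter. These were Ifi204, Dhx58, Eif2ak2, Adar, Oasl2, Usp18, Uba7, Herc6, Sp100, Trim30a and Xaf1. All 11 are among the 28 above young. Among the 22 that reached 1 RPKM in both young libraries, 16 rose, 1 fell and 5 did not pass. The median log2 fold change was 0.80 over the 33 and 0.78 over those 22, beside 0.00 over all genes. The ratio of mean RPKM was at least 2 for 20 of 33 genes.

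Old GSH-low cells were compared with the same young libraries, so the young values are shared with the comparison above. In both, age cannot be told apart from pooling (1 animal against 2) or from the unsplit young sort. Here 28 antiviral genes rose, 1 fell (again Ifitm2) and 4 did not pass (Ifitm3, Cmpk2, Ifi27 and Tor3a). In this comparison 18.1% of all genes rose and 18.7% fell. Both old GSH-low libraries were above both young ones for 29 of 33 genes, against 32.6% of all genes. The 29 include the 11 genes whose rise was built into the filter. Among the 22 genes at 1 RPKM or more in both young libraries, 17 rose and 1 fell. The median log2 fold change was 0.75 over the 33 and 0.73 over those 22, beside -0.02 over all genes. The ratio of means was again at least 2 for 20 genes, some of the 11 among them. Counting over both comparisons, 27 genes rose in each.

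**Figure D3:**
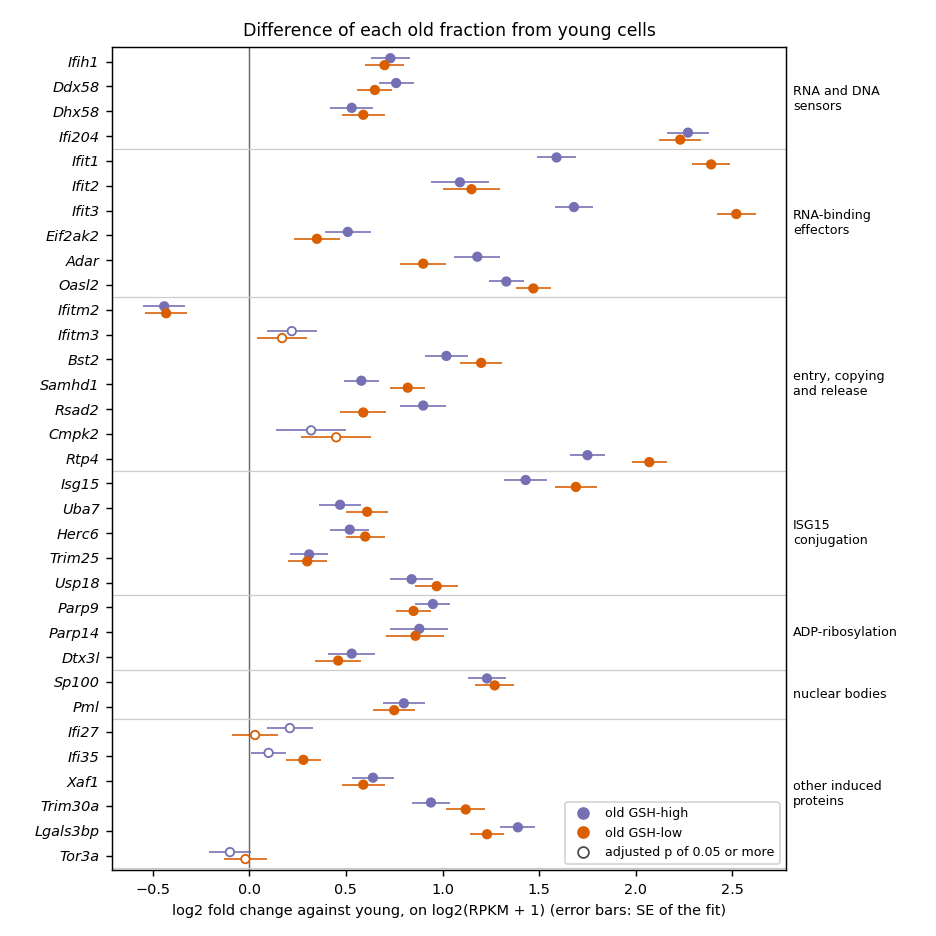
Log2 fold changes of each old fraction against young, with the SE of the fit, for the 33 genes in order of role. Filled points passed the test; the values run from -0.44 (Ifitm2) to 2.52 (Ifit3 in old GSH-low), and the fractions differ most for Ifit1 and Ifit3.

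Among the sensors, Ifih1 and Ddx58 rose in both old fractions, as did Ifi204 and Dhx58, which passed the filter only through old libraries. Ifi204, a member of the p200 family that binds DNA, had 0.263 and 0.339 RPKM in the young libraries, 5.12 and 5.43 in old GSH-high and 5.60 and 4.67 in old GSH-low. The groups of old and young libraries lay far apart, and the old fractions overlapped. Mean RPKM was 17.5 times the young value in the GSH-high fraction (a log2 change of 2.27 ± 0.11, adjusted p = 3.22e-06) and 17.0 times in old GSH-low (2.23 ± 0.11, adjusted p = 1.57e-06), the highest ratios of the set. The young values rested on 57 and 71 reads. Ifi204 has close relatives beside it on chromosome 1, and how reads shared between them were counted is not given in the sources used here.

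The RNA helicases that recognise double-stranded RNA changed less. Ifih1, which encodes MDA5, had 1.81 and 2.24 RPKM in young libraries and 3.69 to 4.11 in the 4 old ones. Its log2 fold change was 0.73 ± 0.10 in old GSH-high (adjusted p = 0.00119) and 0.70 ± 0.10 in old GSH-low (adjusted p = 0.00114). Ddx58 averaged 1.73 ± 0.0193 RPKM in young, 3.62 ± 0.244 in old GSH-high and 3.27 ± 0.0198 in old GSH-low, with all old libraries above the young ones. Dhx58, which encodes LGP2, a regulator of the other helicases, had the lowest level in old cells, 1.05 ± 0.139 and 1.13 ± 0.130 RPKM against 0.417 ± 0.0497. Its rise in old GSH-high no longer passed once replicate 2 of that group was left out (adjusted p = 0.0509), and Dhx58os, an antisense gene, shares exon positions with it.

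Of the 6 RNA-binding effectors, Ifit1, Ifit2 and Ifit3 reached 1 RPKM in both young libraries, and these 3 rose in both fractions. Eif2ak2, Adar and Oasl2 also passed the test, but a rise was built into the filter for them. Ifit3, a partner of Ifit1 in binding RNA, had 1.47 and 1.57 RPKM in young libraries, 6.74 and 7.37 in old GSH-high and 12.7 and 14.4 in old GSH-low. The 3 groups did not overlap and stood in that order. The log2 change was 1.68 ± 0.10 for old GSH-high (adjusted p = 8.14e-06) and 2.52 ± 0.10 in old GSH-low (adjusted p = 5.63e-07).

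Ifit1 encodes a protein that holds mRNA lacking the cell's own cap methylation. It had 2.49 and 2.93 RPKM in young, 10.7 and 9.56 in old GSH-high and 19.1 and 17.8 in old GSH-low, in the same order as Ifit3 and again without overlap. Against young, the mean was 3.74 times as high in old GSH-high (adjusted p = 1.28e-05) and 6.81 times in old GSH-low (adjusted p = 8.87e-07). Ifit2, on the same stretch of chromosome 19 (7112 bases from Ifit3), had 1.63 and 2.34 RPKM in young, 5.21 and 5.37 in old GSH-high and 6.57 and 4.74 in old GSH-low. It rose with age in both fractions (log2 fold changes 1.09 ± 0.15 and 1.15 ± 0.15), and the fractions overlapped. On GRCm38 the genes lie at chr19:34550694-34576419 (Ifit2), chr19:34583531-34588731 (Ifit3) and chr19:34640871-34650009 (Ifit1). Ifit3b, a near-identical copy of Ifit3, had 0.403 and 0.0766 RPKM in young, 1.39 and 1.03 in old GSH-high and 2.31 and 1.47 in old GSH-low, and how reads were divided between the copies is uncertain.

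The remaining effectors act on double-stranded RNA. Oasl2, an oligoadenylate synthetase-like protein, averaged 0.689 RPKM in young (0.689 in each library), 3.23 ± 0.152 in old GSH-high and 3.70 ± 0.148 in old GSH-low. Adar, the enzyme that edits adenosine to inosine, had 0.959 and 1.14 RPKM in young, 4.00 and 3.31 in old GSH-high and 3.11 and 2.53 in old GSH-low (log2 fold changes 1.18 ± 0.12 and 0.90 ± 0.12). Eif2ak2 encodes PKR, the kinase that halts translation. It rose least, from 1.05 ± 0.225 to a mean of 1.91 and 1.61 RPKM, and its calls were the least firm of this group. Its adjusted p was 0.0132 in old GSH-high and 0.0451 in old GSH-low, and these calls ended when replicate 2 of old GSH-high was left out (adjusted p = 0.0947) and, for old GSH-low, without young replicate 2 (0.174), either old GSH-high library (0.0509 and 0.0511) or either old GSH-low library (0.147 and 0.137). A replicate block fitted to all 6 libraries also ended the old GSH-low call (0.0693).

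Genes that block entry, copying and release split by level. Ifitm3 and Ifitm2 encode membrane proteins that stop viral fusion and lie 53599 bases apart on chromosome 7. Ifitm3 had the highest level of the set, 1377 and 1062 RPKM in young, 1422 and 1393 in old GSH-high and 1289 and 1433 in old GSH-low. It did not pass (adjusted p = 0.252 and 0.348), and young replicate 1 lay within the range of old GSH-low. Without young replicate 1 it was called, at 0.41 (adjusted p = 0.0229) and 0.36 (adjusted p = 0.0279). Ifitm2 had 249 and 201 RPKM in young and 161 to 169 in the 4 old libraries, below both young values. Its log2 fold changes were -0.44 ± 0.11 (adjusted p = 0.0164) and -0.43 ± 0.11 (adjusted p = 0.0145). Each call ended when either library of its own old group was left out (adjusted p = 0.0961 and 0.0862 for old GSH-high, 0.1 and 0.0533 for old GSH-low).

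Rtp4, known as a chaperone that brings receptors to the membrane, rose most among these genes. It had 1.19 and 1.13 RPKM in young, 6.27 and 6.28 in old GSH-high and 8.21 and 7.93 in old GSH-low (log2 fold changes 1.75 ± 0.09 and 2.07 ± 0.09). The 3 groups stood apart. Bst2, or tetherin, which holds budding virus on the cell surface, had 13.2 and 11.6 RPKM in young, 28.8 and 23.7 in old GSH-high and 28.7 and 30.9 in old GSH-low. The old fractions overlapped, and the young libraries were below all old ones. Bst2 had log2 fold changes of 1.02 ± 0.11 (adjusted p = 0.000286) and 1.20 ± 0.11 (adjusted p = 7.99e-05).

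Samhd1, an enzyme that breaks down deoxynucleotides, averaged 1.13 ± 0.0102 RPKM in young, 2.19 ± 0.00431 in old GSH-high and 2.76 ± 0.202 in old GSH-low, and rose in both. Rsad2 encodes viperin, which makes a chain-terminating nucleotide, and its neighbour Cmpk2 supplies nucleotides to it; their starts are 12752 bases apart on chromosome 12. Rsad2 had 1.80 and 1.32 RPKM in young, 3.98 and 3.53 in old GSH-high and 2.94 and 2.73 in old GSH-low (log2 fold changes 0.90 ± 0.12 and 0.59 ± 0.12). Cmpk2 had 1.38 and 1.77 in young, 2.69 and 1.77 in old GSH-high and 3.09 and 2.01 in old GSH-low. Its replicates were far apart and it did not pass (adjusted p = 0.222 and 0.0810), but in old GSH-low it was called once replicate 2 of that group was left out (0.67, adjusted p = 0.0335), and also with a replicate block in the 4 samples compared (0.45, adjusted p = 0.00708).

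The ISG15 system attaches a ubiquitin-like protein to others, and Isg15 and Trim25 rose in both fractions. Usp18, Uba7 and Herc6 passed as well, after entering through the old libraries. Isg15 itself had 10.3 and 8.18 RPKM in young, 26.9 and 26.2 in old GSH-high and 29.9 and 33.9 in old GSH-low. The old fractions lay next to each other, both well above young (log2 fold changes 1.43 ± 0.11, adjusted p = 5.03e-05, and 1.69 ± 0.11, adjusted p = 1.33e-05). Usp18, the protease that removes ISG15 and dampens the receptor, rose from 0.366 and 0.329 RPKM to 1.57 and 1.26 in old GSH-high and 1.78 and 1.49 in old GSH-low, ratios of 4.08 and 4.70, with 62 and 54 reads in the young libraries.

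The activating enzyme Uba7 averaged 0.697 ± 0.0467 RPKM in young, 1.35 ± 0.229 in old GSH-high and 1.59 ± 0.0534 in old GSH-low, and the ligase Herc6 0.915 ± 0.0715, 1.75 ± 0.136 and 1.89 ± 0.104. The Uba7 call in old GSH-high ended once its replicate 1 was left out (adjusted p = 0.101). Trim25, a ubiquitin ligase that activates RIG-I, changed least, from 7.80 ± 0.529 RPKM to 9.94 ± 1.09 and 9.84 ± 0.264 (adjusted p = 0.0444 and 0.0421). Leaving out young replicate 1 (adjusted p = 0.142 and 0.13) or any of the 4 old libraries (0.0529 to 0.286) ended both Trim25 calls, as did the block fitted to all libraries (0.0673 and 0.0629) and the 4 libraries of each comparison alone (0.0736 and 0.0528).

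Parp9 and Dtx3l form a complex that adds ADP-ribose to ubiquitin, and Parp14 is a related transferase; all 3 lie together on chromosome 16 and all rose. Parp9 averaged 3.05 ± 0.277 RPKM in young, 6.81 ± 0.278 in old GSH-high and 6.28 ± 0.155 in old GSH-low, and Parp14 2.04 ± 0.583, 4.55 ± 0.539 and 4.49 ± 0.769. Dtx3l averaged 3.36 ± 0.442, 5.28 ± 0.0136 and 5.01 ± 0.840 RPKM. Dtx3l and Parp9 are transcribed in opposite directions from starts 681 bases apart and overlap, and the strand setting of the counts is not given in the sources used here, so their reads may be mixed. The Dtx3l calls ended without young replicate 1 (adjusted p = 0.0539 and 0.0744), for old GSH-high, without either of its libraries (0.0651 and 0.0561) and, for old GSH-low, without old GSH-low replicate 1 (0.141).

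Sp100 and Pml, scaffolds of the nuclear bodies that silence incoming viral genomes, rose in both fractions. Sp100 had 0.292 and 0.194 RPKM in young (134 and 86 reads), 2.00 and 1.82 in old GSH-high and 2.06 and 1.91 in old GSH-low. Its mean was 7.86 and 8.19 times that of young, and the log2 fold changes were 1.23 ± 0.10 (adjusted p = 5.90e-05) and 1.27 ± 0.10 (adjusted p = 3.21e-05). Pml averaged 1.53 ± 0.185, 3.41 ± 0.179 and 3.28 ± 0.405 RPKM.

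The last group has mixed roles. Lgals3bp, a secreted galectin-binding glycoprotein, had 3.20 and 3.52 RPKM in young, 10.6 and 10.2 in old GSH-high and 9.61 and 8.79 in old GSH-low (log2 fold changes 1.39 ± 0.09 and 1.23 ± 0.09). Trim30a, a TRIM protein of mouse, rose from 0.336 and 0.443 RPKM to 1.73 and 1.61 and to 2.04 and 1.99. Xaf1, an antagonist of the apoptosis inhibitor XIAP, averaged 1.10 ± 0.168, 2.26 ± 0.00802 and 2.16 ± 0.323 RPKM and rose in both fractions.

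Ifi27 (a mitochondrial protein), Ifi35 (a partner of Nmi) and Tor3a (an ATPase of the endoplasmic reticulum) had young levels of 104 ± 17.1, 27.9 ± 3.23 and 12.4 ± 1.16 RPKM. Young and old libraries overlapped for Ifi27 and Tor3a. Ifi27 was called in old GSH-high only without young replicate 1 (0.37, adjusted p = 0.0366). Ifi35 passed in old GSH-low (33.8 and 34.2 RPKM, log2 fold change 0.28 ± 0.09, adjusted p = 0.0465). That call ended without any 1 of the libraries except young replicate 1 (adjusted p from 0.0876 to 0.163), with limma-voom (0.0554) and with the block fitted to all libraries (0.0754).

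Old GSH-low cells were then compared with old GSH-high cells. Of the 33 antiviral genes 2 rose, Ifit3 and Ifit1, and 31 did not pass; 3.69% of all genes rose and 1.69% fell in this comparison. By limma-voom the count was also 2. For 9 of 33 genes (27.3%) both old GSH-low libraries were above both old GSH-high ones, against 25.7% of all genes. For 7 they were below, and the share of all genes below was not counted. The count of 2 rises and that of 9 genes above are near the shares over all genes. They show nothing particular to the set. Ifit3 averaged 13.5 ± 1.18 against 7.06 ± 0.445 RPKM, 1.92 times as high (log2 fold change 0.85 ± 0.10, adjusted p = 0.00111), and Ifit1 18.5 ± 0.899 against 10.1 ± 0.818 RPKM, 1.82 times (0.81 ± 0.10, adjusted p = 0.00176). Each held in all 15 alternatives tried.

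The other 31 genes had differences from -0.31 (Rsad2) to 0.32 (Rtp4), 16 positive and 15 negative, with a median over the 33 of 0.04. Their 95% intervals reached from -0.57 to 0.54, and 4 of the 31 intervals, which are not adjusted for the number of genes, left out 0. These were Rtp4 (0.12 to 0.51), Samhd1 (0.02 to 0.45), Adar (-0.56 to -0.01) and Rsad2 (-0.57 to -0.04). Rtp4 missed the test (adjusted p = 0.0771) and passed without young replicate 1 (0.0466) or young replicate 2 (0.0464), and in the 4 old libraries alone (0.0415). Ifit2, the neighbour of Ifit3 and Ifit1, differed by 0.07 ± 0.15 (95% interval -0.28 to 0.42).

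**Figure D4:**
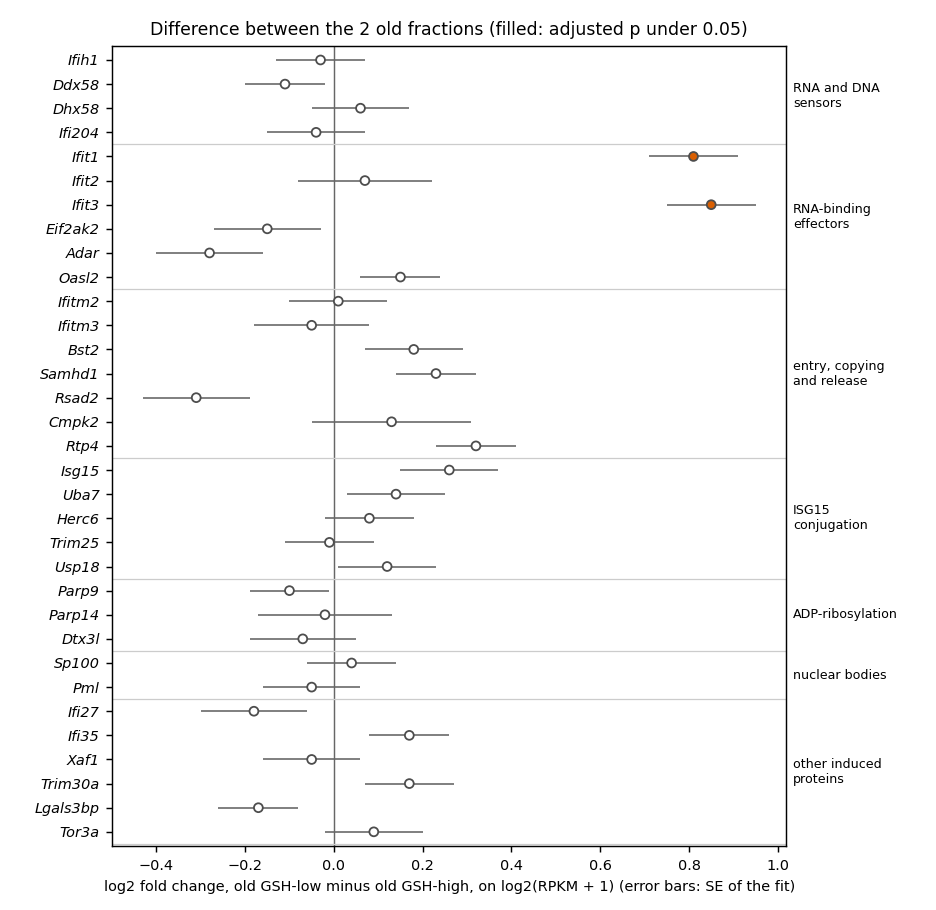
Log2 fold change of each antiviral gene in old GSH-low against old GSH-high, with the SE of the fit, by role. Ifit1 (0.81) and Ifit3 (0.85) are the filled points; the other genes lie between -0.31 and 0.32 on both sides of 0.

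Transcription factors of the pathway were followed as well. Stat2 had 4.65 and 4.96 RPKM in young, 10.6 and 8.97 in old GSH-high and about 14.1 in both libraries of old GSH-low, and the 3 groups did not overlap. It rose against young in both fractions (0.89 ± 0.10 and 1.37 ± 0.10) and between the fractions (0.48 ± 0.10, adjusted p = 0.0248), the last ending when replicate 2 of old GSH-high was dropped (adjusted p = 0.237), without either old GSH-low library (0.147 and 0.143) and with the block fitted to all libraries (0.0515). Irf9 rose from 4.52 and 4.13 RPKM to 10.8 and 10.1 and to 12.1 and 10.5, and Irf7, which drives interferon genes and is itself induced, from 3.53 and 3.11 to 10.6 and 9.54 and to 10.3 and 9.69.

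Irf1, a factor of the interferon gamma response, rose between the fractions (0.61 ± 0.09, adjusted p = 0.00373), a call that ended with replicate 2 of old GSH-high left out (adjusted p = 0.0514), while Irf5 fell with age in both (-0.82 and -0.87). Of the 10 STAT and IRF genes listed, 5 rose and 2 fell in the GSH-high fraction, beside 15.1% and 13.7% of all genes. In the GSH-low fraction 6 rose and 1 fell, beside 18.1% and 18.7%, and 2 rose between the fractions, beside 3.69%. A rise was built into the filter for 1 of the 10. Of the other 9, 4 rose in old GSH-high and 5 in old GSH-low. The falls were near the shares over all genes. The Stat3 rise and Irf2 fall in old GSH-high ended when a single library was left out. So did the Stat3 and Irf1 rises in old GSH-low.

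The 12 interferon genes listed were not analysed here. Of 8 receptor and kinase genes 1 rose (Jak2) and 1 fell (Ifngr2, a chain of the interferon gamma receptor) in each age comparison, a share close to those over all genes, so these counts show nothing particular to the list. Ifngr2 went from 18.9 and 18.4 RPKM to 9.61 and 10.5 in old GSH-high and 9.23 and 10.6 in old GSH-low. Jak2 lost its old GSH-low call without old GSH-low replicate 1 (adjusted p = 0.0594). Among 9 tested adaptors and kinases of the sensors, Tmem173 (STING, the adaptor for cytosolic DNA) rose from 6.65 and 7.68 RPKM to 15.4 and 15.7 and to 19.1 and 18.1, and Zbp1 (a sensor of left-handed nucleic acid) from 1.35 and 1.16 to 4.74 and 3.82 and to 3.43 and 3.07. In old GSH-high 2 of these 9 rose and 1 fell, beside 15.1% and 13.7% of all genes. In old GSH-low 2 rose and 4 fell, beside 18.1% and 18.7%. Except for the falls in old GSH-low, these counts are near those shares and show nothing particular to the list. The falls of Mavs, Traf3 and Traf6 in old GSH-low ended when a single library was left out.

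Inhibitors went different ways. Socs1, which blocks the kinases of the interferon receptors, fell from 40.6 and 36.9 RPKM to 23.2 and 22.6 and to 22.9 and 24.4 (-0.73 ± 0.09 and -0.69 ± 0.09). Socs3, a feedback inhibitor of cytokine receptors, rose in both fractions and further in old GSH-low, with 51.1 and 47.0 RPKM in young, 83.3 and 72.1 in old GSH-high and 165 and 143 in old GSH-low. Of 7 tested inhibitors 2 rose and 1 fell in old GSH-high, beside 15.1% and 13.7% of all genes. In old GSH-low 3 rose and 1 fell, beside 18.1% and 18.7%. The shares that fell were near those over all genes. The rise of Rnf125 in old GSH-high and the rises of Pias1 and Ptpn2 in old GSH-low ended when a single library was left out.

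A further 33 tested interferon-stimulated genes outside the antiviral set were followed too. Of these, 16 were under 1 RPKM in a young library and had a rise built into the filter. Among the other 17, 10 rose and 2 fell in old GSH-high (median 0.33), beside 15.1% and 13.7% of all genes. In old GSH-low 8 rose and 1 fell (median 0.28), beside 18.1% and 18.7%. Many of these rises ended when a single library was left out. In old GSH-high these were Pnpt1, Parp12, Trim12a, Trim21, Nmi, Tdrd7 and Lgals9. In old GSH-low they were Isg20, Apobec3, Parp12, Trim21, Tdrd7 and Cxcl10. Between the fractions 6 of the 33 rose and 2 fell (median -0.04), beside 3.69% and 1.69% of all genes. Among these, the rises of Mx2 and Slfn8 and the fall of Slfn5 ended when a single library was left out. They also ended with a pseudocount of 0.1 (adjusted p = 0.0957, 0.257 and 0.0719, limma). The 16 include p200 genes related to Ifi204. Ifi203 rose from 0.344 and 0.338 RPKM to 2.80 and 2.47 and to 4.58 and 4.05, and Mndal from 0.541 and 0.417 to 2.43 and 2.30 and to 4.54 and 3.99. Ifi205 reached 6.16 and 5.22 RPKM in old GSH-high and 3.59 and 2.31 in old GSH-low. Between the fractions Ifi203 (0.55) and Mndal (0.64) rose and Ifi205 fell by 0.78 on the log2 scale. Those 3 calls ended without 1 or more single libraries: Ifi203 and Mndal without old GSH-high replicate 2 (adjusted p = 0.142 and 0.0607) or old GSH-low replicate 1 (0.132 and 0.0677), Ifi205 without old GSH-high replicate 1 (0.133) or old GSH-low replicate 2 (0.095).

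Cxcl10, a chemokine induced by interferon, took another course: 28.8 and 23.9 RPKM in young, 13.2 and 15.2 in old GSH-high and 32.1 and 36.8 in old GSH-low. It fell in old GSH-high against young (-0.84 ± 0.12) and exceeded that level in old GSH-low (1.22 ± 0.12, adjusted p = 0.000427). Against young its rise in old GSH-low (0.38 ± 0.12, adjusted p = 0.0347) ended without young replicate 2 (adjusted p = 0.126) or either old GSH-low library (0.0575 and 0.194) and with the block fitted to all libraries (0.0578). Ifitm1, the third fusion inhibitor of that family, was low in young cells (1.14 and 0.467 RPKM) and rose to 3.05 and 2.04 in old GSH-high and 9.60 and 9.72 in old GSH-low, a difference of 1.60 ± 0.19 between the fractions (adjusted p = 0.00127).

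Markers of other cells also differed between the groups. Macrophage and monocyte markers summed to 10.1 and 11.9 RPKM in young and 45.4 to 61.2 in the 4 old libraries. In each age comparison 7 of 7 tested rose, beside 15.1% and 18.1% of all genes. Of these 7, 4 passed the filter only through old libraries. Ptprc (CD45, a protein of all leukocytes that the sort selected against) had 3 and 3 reads in young, 68 and 124 in old GSH-high and 553 and 493 in old GSH-low, and stayed under 1 RPKM throughout. Of that list 5 of 13 markers, Adgre1 and Csf1r among them, were not analysed here. Endothelial markers summed to 58.5 and 77.7 RPKM in young, 148 and 147 in old GSH-high and 42.8 and 37.8 in old GSH-low. Of 16 tested, 15 rose in the GSH-high fraction and 10 fell in the other, beside 15.1% and 18.7% of all genes. Of the 16, 5 were under 1 RPKM in a young library and needed old libraries to pass the filter. Among the other 11, 10 rose in old GSH-high and 8 fell in old GSH-low. The antiviral medians were 0.80 and 0.75.

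Tendon cell markers summed to at most 38.4 RPKM in young, 812 and 642 in old GSH-high and 3067 and 2676 in old GSH-low. There 9 of 9 were higher than in old GSH-high, beside 3.69% of all genes. Lymphocyte markers summed to 1.20 and 1.12, 2.38 and 3.57, and 25.8 and 24.2 RPKM. In old GSH-low against old GSH-high 5 of 5 tested rose, beside 3.69% of all genes. Those 5 summed to 0.877 and 0.791 RPKM in young, 1.99 and 3.25 in old GSH-high and 24.6 and 22.8 in old GSH-low. They passed the filter only through old libraries, mostly those of old GSH-low, so the filter favoured their rise. Ifit1 and Ifit3 rose in the same comparison. Fat cell markers summed to under 1 RPKM in young, 68.9 and 48.2 in old GSH-high and 2.30 and 1.52 in old GSH-low. Fibro-adipogenic progenitor markers rose for 8 of 10 in old GSH-high and 7 of 10 in old GSH-low (medians 0.94 and 0.71), beside 15.1% and 18.1% of all genes. Col3a1 fell in both, and Ly6a (Sca1, which the sort selected against) rose in old GSH-high and fell in old GSH-low. Pericyte and smooth muscle markers rose for 6 of 8 and 5 of 8 (medians 0.96 and 1.21), beside 15.1% and 18.1% of all genes, while Acta2 fell in both. Of the 8, 4 were under 1 RPKM in a young library, and among the other 4, 2 rose in each fraction. The summed RPKM of that list was lower in old cells. It was 186 and 195 in young, 140.4 and 162 in old GSH-high and 162 and 158 in old GSH-low. Of 6 neutrophil markers listed only 2 were tested, S100a8 and S100a9, and both passed the filter only through old libraries. They rose in each fraction (medians 2.60 and 1.84). Their sums were uneven between replicates, at 3.42 and 0.237 RPKM in young, 27.4 and 14.2 in old GSH-high and 6.94 and 16.9 in old GSH-low. Between the fractions 5 of 6 myofibre markers were higher in old GSH-low (median 0.95), beside 3.69% of all genes. Several of these markers were under 1 RPKM in young libraries too. The part of these cells in the antiviral results was not tested.

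**Figure D5:**
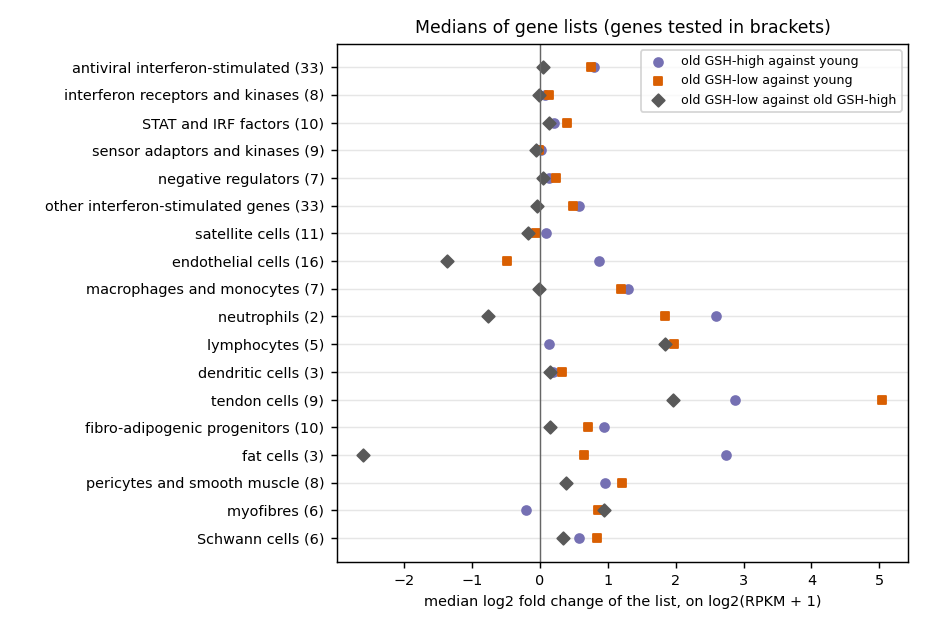
Median log2 fold change of the antiviral genes, of other lists of the interferon pathway and of marker lists, in the 3 comparisons; the number of genes tested stands in brackets. The antiviral genes have medians of 0.80 and 0.75 against young and 0.04 between the old fractions, and tendon cell markers reach 5.04.

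The age comparisons were also read by promoter sequence. Of the 11 genes with the response element core 9 rose in each old fraction, and of the 14 with a window but no core 12 rose in old GSH-high and 13 in old GSH-low. Over all genes tested 15.1% rose in old GSH-high and 18.1% in old GSH-low. Ifitm2 and Ifitm3 hold the core and did not rise. Of the genes without it, Cmpk2 passed in neither comparison and Ifi35 only in old GSH-low. Both sets count genes whose rise was built into the filter. These were Eif2ak2 and Trim30a with the core, and Adar, Oasl2, Herc6, Uba7, Sp100 and Xaf1 without it. The difference between holders and others was not tested.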

How the data were processed

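Sorted muscle stem cells were measured by RNA-seq in 6 libraries of 3 groups. Per the submitters' processing notes the authors used Trim Galore, STAR, featureCounts of Subread, and edgeR on GRCm38 (mm10); versions, strand setting and gene filter are not given in the sources used here. The deposited values are RPKM, scaled between libraries by the authors. All 12067 rows came out as whole reads (within 0.02 reads), 11816 of them with gene lengths of GENCODE M21. There were 229 values at 0.5 times the lowest other value of the gene, read as replaced zeros. The 10609 genes that reached 1 RPKM in 2 libraries or more were fitted as log2(RPKM + 1) with limma-trend 3.58.1 in R 4.3.3, as group means over the 6 libraries with 3 residual degrees of freedom, two-sided. P-values measure the spread between single young animals and between pools of 2 old animals. The 34 genes, the lists and the tests were chosen with earlier results of these data known. Per-library values are given for up to 12 changed antiviral genes a comparison in order of p, the 6 most abundant and the lowest p of each role; of other lists up to 4 changed genes a comparison in order of p are named, and Stat2, Irf7 and Irf9 in any case; 1 item is not reported here. Alternatives were 2 scalings, no filter, a pseudocount of 0.1, zeros restored, limma-voom run on recovered reads, fits to only 4 libraries, a replicate block, and leaving out single libraries. The fit was tested on simulated data. Figures used Python 3.11.15 and matplotlib 3.10.9.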

Additional observations from a re-analysis of the deposited data

Results flagged for a closer look

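The difference from young cells was not the same in the old fractions for 2 antiviral genes, by the test of the difference itself, made directly between those fractions. For Ifit1 it was 0.81 larger on the log2 scale in old GSH-low (adjusted p = 0.00176, limma), and for Ifit3 0.85 larger (adjusted p = 0.00111). Both old GSH-low libraries were above both old GSH-high libraries for each gene.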

How the results depend on the processing

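No call of an antiviral gene changed sign under the 15 alternatives. In old GSH-high against young 22 of 28 calls held throughout, in old GSH-low against young 24 of 29, and between the fractions 2 of 2. Leaving out single libraries gave 23 to 28 antiviral genes changed in old GSH-high against young, 24 to 28 in old GSH-low against young and 2 to 3 between the fractions. Over all genes the counts of 571, 3051 and 3901 (old GSH-low against old GSH-high, old GSH-high against young, old GSH-low against young) moved more. Without single libraries they ran from 312 to 863, 1493 to 3802 and 2068 to 4295. The lowest came without old GSH-high replicate 2, old GSH-high replicate 1 and old GSH-low replicate 1. The 4 old libraries alone gave 864 between the fractions. Scaled by library size only, 1930 genes rose and 1124 fell in old GSH-high against young (1598 and 1453 as reported), and 2258 rose and 1487 fell in old GSH-low against young (1919 and 1982); antiviral counts stayed at 28 and 29.

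The labels link samples of different groups only by a replicate number and do not say whether the old fractions share pools. Deviations of replicate 1 correlated at 0.069 between the old fractions, -0.142 between old GSH-high and young and -0.263 between old GSH-low and young. With that number as a replicate block over all samples 479, 2559 and 3350 genes and 2, 27 and 26 antiviral genes were called. With the block in the 4 samples compared the counts were 1067, 2730 and 3206, and 3, 27 and 28. The causes were not tested.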
